A study of Mus musculus with 31 samples.

Results

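The genes of meiotic entry and of the meiotic chromosome axis were followed through fetal mouse gonads that lacked beta-catenin (Ctnnb1), the transcription factor Sox9, or both. The set held 31 listed genes. A gene was taken into the set where at least 1 probe set of the array carried its symbol and no other, and, where several did, the probe set with the highest mean of log2(signal + 16) over all 31 arrays stood for it. Of the 31 genes, 30 had such a probe set, out of 18193 genes measured; Rad21l had none. Mei4 was above its own array's median signal on 0 arrays and is given by its values only, which left 29 genes among the 11777 that passed the filter on low signal and were tested. Of the 29, 7 (Meioc, Hormad2, Prdm9, Mei1, Msh4, Msh5 and Tex11) were above the median on 0 of the 4 XY control arrays and 0 of the 4 XY Ctnnb1KO arrays, and so passed the filter only through groups in which they were higher. Their differences from XY control are given as a description, and the counts are also given over the other 22.

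Germ cells of the fetal ovary enter meiosis before birth, whereas those of the fetal testis are held in mitotic arrest. Entry is driven by STRA8, which is induced by retinoic acid, and by the RNA-binding partners MEIOC and YTHDC2, which turn the cell from the mitotic to the meiotic programme. Chromosomes are then folded onto a protein axis built from meiotic cohesins (REC8, SMC1B, STAG3), HORMA-domain proteins and SYCP2 with SYCP3, and paired axes are joined by the synaptonemal complex of SYCP1, SYCE1, SYCE2 and TEX12. On this scaffold SPO11 cuts the DNA and DMC1 with its partners repairs the breaks from the homologous chromosome. In the somatic cells around the germ cells SOX9 directs Sertoli cell fate, and beta-catenin carries the WNT4 and RSPO1 signal of the fetal ovary.

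Each array held RNA of the gonads of 1 fetus at embryonic day 14.5, freed of the mesonephros, with 40 ng of RNA amplified and labelled with biotin. All fetuses carried the Sf1-cre transgene, whose Cre recombinase acts in somatic cells of the gonad and not in germ cells. Controls were Ctnnb1+/f; Sox9+/f, Ctnnb1KO was Ctnnb1f/f; Sox9+/f, Sox9KO was Ctnnb1+/f; Sox9f/f and DKO was Ctnnb1f/f; Sox9f/f, so that every animal, controls included, carried at least 1 floxed allele of each gene beside the Cre. XX and XY gonads of the 4 genotypes gave 8 groups of 4 arrays, except XY DKO with 3 (replicates 2, 3 and 4).

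The targeted gene Sox9 had signals of 839.7 to 1024.9 in XY control, 7.1 to 41.7 in XY Sox9KO and 8.6 to 34.9 in XY DKO. Ctnnb1 signal was not used to check labels, since nothing states where its probe sets lie relative to the floxed part. The array labelled XX Ctnnb1KO replicate 4 went against its label in part: its Xist signal was 51.1, against 7489.8 to 9431.7 on the other 15 XX arrays and 42.3 to 103.5 on the XY arrays. Its signal of the Y-linked Eif2s3y was 29.6, against 2.0 to 30.3 on the other 15 XX arrays and 2516.3 to 3709.8 on the XY arrays. The array thus lay with XX by Eif2s3y and with XY by Xist. Values of XX Ctnnb1KO that this array moves are given without it as well. Germ cell markers were present in all groups: the summed signal of 14 of 15 listed markers (among them Ddx4, Dazl and Pou5f1) ranged from 13590 to 33794 over the 31 arrays.

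Promoter sequences of the members are shown for 5 genes that the results turn on. Stra8 and Rec8, both counted with the entry genes, carry most of the results. Sycp3 and Tex12 carry the searched motifs, and Trip13 is a member that hardly varied. Sequences are from RefSeq (GRCm38.p6) and run 5′ to 3′ on the gene's strand over 250 bases before and 50 after the transcript's start. Capitals mark motifs found by a search of both strands for CACGTG (the E-box), TTTCCCGC and TTCCCGCC (E2F), CNCCTCAG (reported for STRA8), CTTTGAT (the TCF/LEF core) and the direct repeat of retinoic acid receptors.
Stra8 promoter, chr6:34920698-34920997, plus strand: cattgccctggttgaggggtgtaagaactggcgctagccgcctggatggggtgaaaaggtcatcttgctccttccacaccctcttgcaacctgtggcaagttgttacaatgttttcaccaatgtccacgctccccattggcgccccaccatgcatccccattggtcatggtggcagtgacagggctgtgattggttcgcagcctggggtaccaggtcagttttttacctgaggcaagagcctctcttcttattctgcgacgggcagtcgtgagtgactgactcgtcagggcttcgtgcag
Rec8 promoter, chr14:55617916-55618215, plus strand: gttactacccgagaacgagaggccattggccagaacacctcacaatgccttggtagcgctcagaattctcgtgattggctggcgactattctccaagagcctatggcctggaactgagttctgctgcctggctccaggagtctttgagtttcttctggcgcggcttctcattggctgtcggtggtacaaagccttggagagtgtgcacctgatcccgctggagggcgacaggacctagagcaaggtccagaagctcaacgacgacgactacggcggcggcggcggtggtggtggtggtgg
Sycp3 promoter, chr10:88459337-88459636, plus strand: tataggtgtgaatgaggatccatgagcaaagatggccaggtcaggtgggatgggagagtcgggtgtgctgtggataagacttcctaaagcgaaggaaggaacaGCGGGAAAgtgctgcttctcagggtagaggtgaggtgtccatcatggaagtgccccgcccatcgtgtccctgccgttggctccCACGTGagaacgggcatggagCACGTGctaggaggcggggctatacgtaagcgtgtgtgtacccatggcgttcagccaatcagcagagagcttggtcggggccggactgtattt
Tex12 promoter, chr9:50561219-50561518, minus strand: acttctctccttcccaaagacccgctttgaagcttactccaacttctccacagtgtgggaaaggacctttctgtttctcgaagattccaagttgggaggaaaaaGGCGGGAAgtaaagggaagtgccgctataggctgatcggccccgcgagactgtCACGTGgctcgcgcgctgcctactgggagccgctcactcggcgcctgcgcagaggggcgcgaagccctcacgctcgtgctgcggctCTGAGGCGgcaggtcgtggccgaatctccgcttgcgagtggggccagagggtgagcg
Trip13 promoter, chr13:73937718-73938017, minus strand: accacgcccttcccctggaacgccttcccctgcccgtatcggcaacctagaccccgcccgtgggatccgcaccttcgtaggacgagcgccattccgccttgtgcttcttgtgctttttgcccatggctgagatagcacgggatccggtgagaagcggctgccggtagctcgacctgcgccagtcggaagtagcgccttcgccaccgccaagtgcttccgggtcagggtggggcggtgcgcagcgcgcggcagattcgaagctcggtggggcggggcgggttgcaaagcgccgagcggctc

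The table matched 27 members with 31 promoters. The E-box CACGTG stood in 7 of these promoters, those of Hormad1, Sycp1, Stag3, Syce2, Tex12 and Sycp3, against 7.15% of 32851 promoters in all. These 6 genes were all among the 11 axis and synaptonemal complex genes with a promoter, while the motif was in 0 of 10 recombination genes and 0 of 3 entry genes. In Sycp3 it lay at -64 and -43 from the start and in Tex12 at -93. The E2F letters TTTCCCGC were in 5 member promoters (Meioc, Brca2, Sycp3, Syce2 and Msh5) against 1.07% of all, and TTCCCGCC in 6 (5 genes) against 2.19%; the E2F motifs overlapped each other in Syce2 and Msh5. CNCCTCAG was in 6 against 7.94% of all, the retinoic acid receptor direct repeat in 0 against 0.00913%, and CTTTGAT in 0 against 3.73%. Stra8, Rec8 and Trip13 held none of these letters in the window. Member promoters had a median of 19 CG dinucleotides in 300 bases, against 7 over all promoters. These matches describe the letters in the windows and show no binding.

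In control gonads most of the set was far lower in the testis than in the ovary. Values are array signals, and differences are between group means of log2(signal + 16), with the standard error of the fit over all genes (limma, adjusted p over 11777 genes, called under 0.05). Of 29 members tested, 23 were lower in XY control than in XX control and 0 were higher, beside 19.8% of all genes called lower and 37.8% called either way. The 7 genes below the median on every XY control array were all among the 23, and over the other 22 members the count was 16. On all 23 the arrays of the 2 groups did not overlap, a state seen in 17.8% of all genes with XY lower. The median difference over the 29 members was -1.86, against -0.02 over all genes.

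Among entry genes, Stra8 gave signals of 3127.8, 3962.1, 6182.5 and 5079.4 in XX control and 284.2, 213.4, 256.5 and 165.0 in XY control. Every XX array was above every XY array, and the difference was -4.21 ± 0.32 (SE; limma adjusted p = 4.53e-12). Meioc, which stabilises the meiotic programme with YTHDC2, gave 2819.0, 2040.4, 2872.5 and 2074.7 in XX control against 75.1, 51.7, 76.5 and 109.2 in XY control. Its difference of -4.73 ± 0.30 was the largest of the set. Rec8, the meiotic kleisin of cohesin, gave 2401.9, 2864.5, 2804.3 and 2782.1 in XX control and 211.2, 219.4, 189.9 and 176.3 in XY control, a difference of -3.67 ± 0.16. Rec8 combined a large contrast with narrow groups. Its protein is a cohesin of the axis, like SMC1B and STAG3, but Rec8 was counted with the entry genes. Counts and positions by role depend on that choice. Ythdc2, an RNA helicase, differed least of the 4 entry genes, by -1.27 ± 0.13, with 770.0 to 1067.4 in XX control and 316.0 to 395.3 in XY control.

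All 10 measured axis and synaptonemal complex genes were lower in XY control. Smc1b, a cohesin subunit of meiosis, had signals of 3687.3, 3912.3, 7797.0 and 5212.1 in XX control and 430.8, 788.3, 824.7 and 427.0 in XY control, a difference of -3.03 ± 0.34. Sycp3, a core of the axis, had 5128.8, 3464.9, 6281.9 and 3174.7 against 819.5, 650.9, 650.8 and 1032.9, a difference of -2.46 ± 0.36. Neither gene's groups overlapped. Tex12 (-2.57 ± 0.38), Syce1 (-2.48 ± 0.32), Hormad1 (-2.50 ± 0.28) and Hormad2 (-2.51 ± 0.36) lay close to Sycp3. Sycp1 (-1.97 ± 0.30), Sycp2 (-1.86 ± 0.49) and Stag3 (-1.76 ± 0.21) differed less, and Syce2, a central element protein, differed by -0.92 ± 0.18 with 4438.2 to 7894.0 in XX control and 2513.9 to 3557.5 in XY control.

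Of 12 recombination genes tested, 9 were lower in XY control. Prdm9, the histone methyltransferase that places recombination hotspots, gave 607.6, 362.6, 1241.5 and 597.7 in XX control and 96.5, 60.2, 44.5 and 78.1 in XY control (-2.97 ± 0.54). Dmc1, the meiotic recombinase, gave 595.9, 791.8, 1643.9 and 1092.3 against 276.5, 216.0, 184.6 and 191.8 (-2.08 ± 0.34). Both sets of arrays stood apart, though the XX arrays of each spread widely. Mei1 (-2.88 ± 0.42), which is needed for break formation, Spo11 (-1.23 ± 0.26), the enzyme that makes the breaks, and Brca2 (-1.08 ± 0.19), which loads recombinases onto DNA, were lower. So were Msh4 (-2.38 ± 0.38) and Msh5 (-1.05 ± 0.33), the partners that stabilise crossover intermediates, the X-linked Tex11 (-1.49 ± 0.35) and Tex15 (-1.80 ± 0.36). Mei4, a partner of the break machinery that was not tested, had 41.1 to 64 in XX control and 8.4 to 19.9 in XY control. The signals of Mei4, Msh4, Mei1 and Hormad2 in XY control lie near the added 16 (14.4 to 58.8 for Hormad2), so their log2 differences understate the change and depend on that number.

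The other 6 tested members were not called in this comparison. Trip13, the ATPase that removes HORMA-domain proteins, had 2078.6 to 2467.8 in XX control and 2310.9 to 2653.6 in XY control, and over the 8 groups its pooled standard deviation of 0.13 on the log2 scale was the lowest of the set. Psmc3ip and Mnd1, the pair that assists DMC1, had 1221.8 to 1553.8 and 422.9 to 708.5 in XX control, and 1297.0 to 1781.9 and 605.0 to 831.6 in XY control. The cohesin guardian Sgo2a (0.31 ± 0.14, limma adjusted p = 0.0858), the coiled-coil protein Mns1 (-0.33 ± 0.15, limma adjusted p = 0.0741) and the testis chaperone Hspa2 overlapped between the groups as well.

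**Figure D1:**
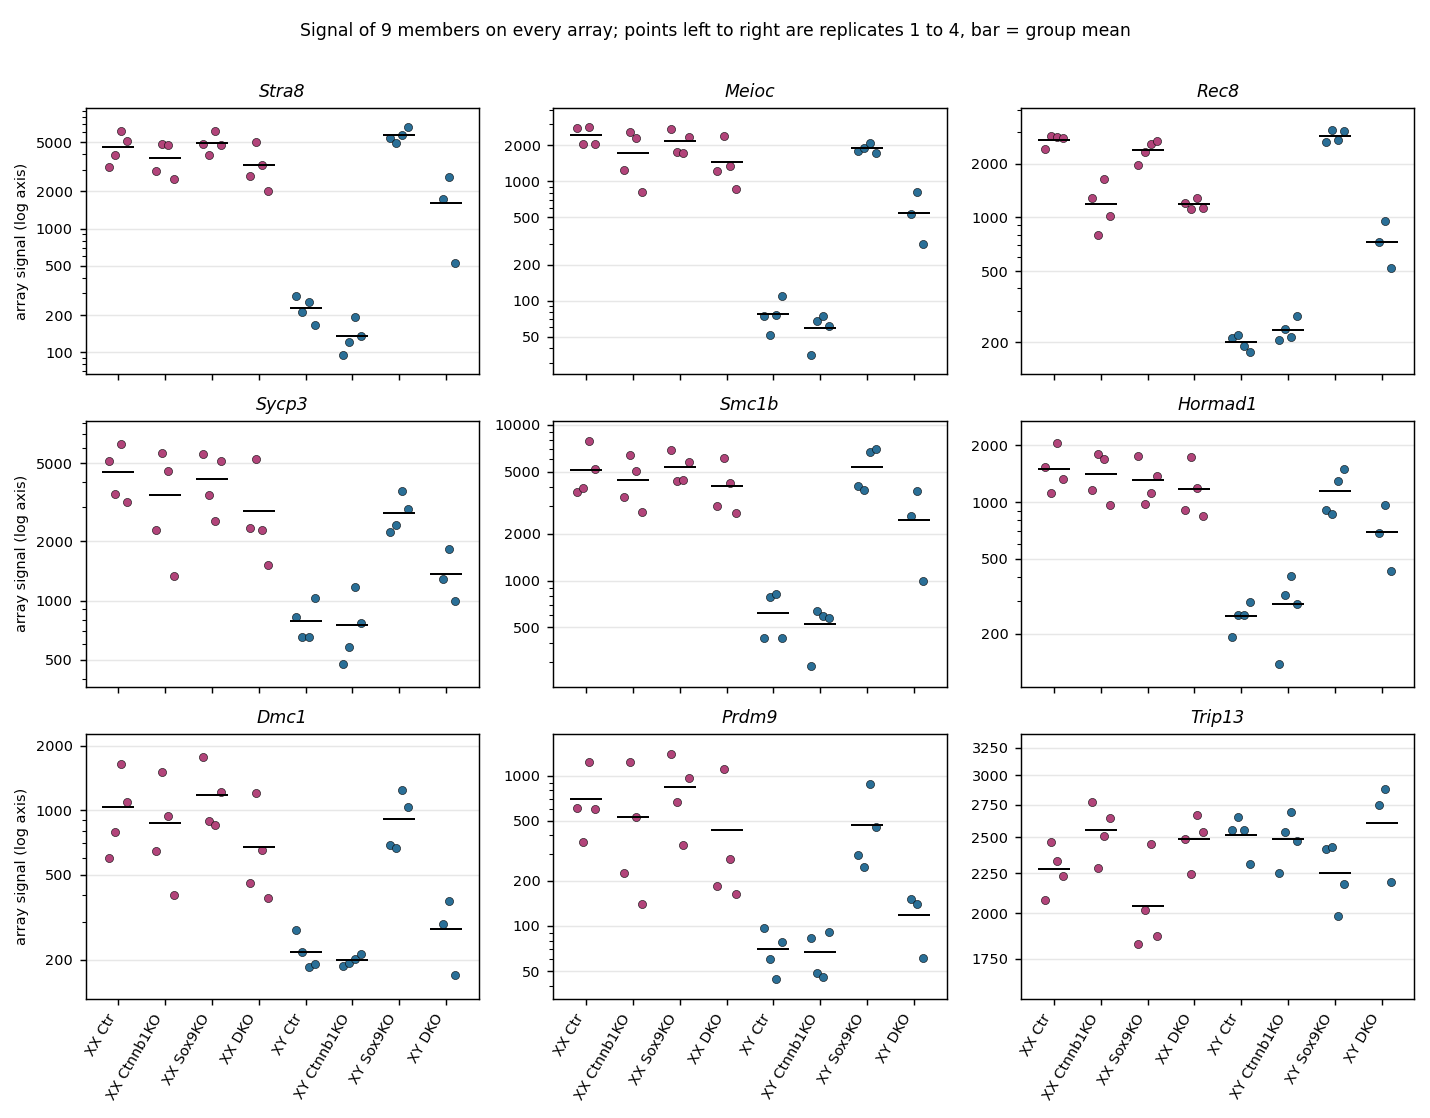
Array signal (log axis) of 9 members on each of the 31 arrays in 8 groups; points run from replicate 1 to 4 from left to right, bars are group means, and XX and XY gonads are pink and blue. Stra8, Meioc and Rec8 are lowest in XY Ctr and XY Ctnnb1KO and intermediate in XY DKO, and Trip13 lies between 1828.8 and 2881.7 on every array.

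Relative to XX and XY controls, 23 measured members differed by more than 1 on the log2 scale (from 1.05 for Msh5 to 4.73 for Meioc, Mei4 included, with Syce2 at 0.92 just outside). This limit was set on the control values, so the 23 are described across the other groups without a test of the choice. XY Ctr and XY Ctnnb1KO had the 2 lowest group means in all 23, and XY DKO the next lowest in all 23. XX Ctr, XX Sox9KO and XY Sox9KO were the 3 highest in 17.

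In XY gonads without Sox9 most of the set was far higher than in control testis. XY Sox9KO was higher than XY control for 23 of 29 members (22.7% of all genes called higher, 38.7% either way) and lower for 1, Sgo2a (-0.40 ± 0.14, limma adjusted p = 0.025, groups overlapping; 16% of all genes called lower). All 23 had arrays that did not overlap, against 20.8% of all genes with XY Sox9KO higher, and the median was 1.81 against 0.05 over all genes. Over the 22 members with an XY control array above the median, 16 were called higher. The calls took in 4 of 4 entry, 10 of 10 axis and 9 of 12 recombination genes. This comparison shares the XY control arrays with that of the controls. The somatic cell markers moved with it: Sertoli cell sums were 4818 to 5422 in XY Sox9KO against 27250 to 31134 in XY control, and fetal Leydig cell sums 1948 to 2426 against 32849 to 37935. Pregranulosa cell sums were 11893 to 13011 against 1588 to 1770. Germ cell marker sums overlapped, at 20042 to 24654 against 19052 to 24408, while the sum of 6 male germ cell genes was 287 to 641 against 3099 to 3634. Single germ cell markers moved both ways: of 14, 6 were called higher and 4 lower, with differences from -0.92 to 3.23. The part of these cells in the members' values was not tested. With every array set against the median of 11 germ cell markers that belong to no other list, a scale chosen after the data were seen, 17 members were called higher, beside 9.68% of all genes called either way on that scale.

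Stra8 reached 5395.1, 4939.9, 5743.2 and 6631.9 in XY Sox9KO (4.55 ± 0.32 above XY control), Meioc 1785.7, 1921.6, 2115.4 and 1736.2 (4.37 ± 0.30) and Rec8 2647.9, 3086.2, 2704.7 and 3045.0 (3.75 ± 0.16). Stra8 and Rec8 lay within or above the XX control range, and 3 of 4 Meioc arrays lay below it. Smc1b had 4023.9, 3824.3, 6631.2 and 7010.7 and was higher than XY control by 3.10 ± 0.34. Prdm9 had 296.4, 245.7, 881.0 and 454.0 (2.37 ± 0.54), Dmc1 688.9, 668.8, 1240.5 and 1032.5 (1.95 ± 0.34) and Sycp3 2239.6, 2413.2, 3626.2 and 2906.0 (1.81 ± 0.36). Replicates 1 and 2 were the lower and 3 and 4 the higher arrays for each of these 4 genes. On the scale of signal, with 0% at the XY control mean and 100% at the XX control mean, the 23 members of XY Sox9KO had a median of 84.9%, from 53.9% for Sycp3 to 125% for Stra8.

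Against XX control, XY Sox9KO had 0 members called (0.628% of all genes; limma, 0 members at an unadjusted p under 0.05 against 18.1% of all genes). A difference was not detected between XY Sox9KO and the ovarian control for these genes, which does not show that they are alike. Sycp3, for example, lay at 2239.6 to 3626.2 in XY Sox9KO and 3174.7 to 6281.9 in XX control, ranges that overlap.

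In XX gonads without Ctnnb1, Rec8 was the one member called lower. Of 29 members, 1 was called in XX Ctnnb1KO against XX control (5.32% of all genes lower, 10.1% either way), with 2 at an unadjusted p under 0.05 (20.5% of all genes). The median over members was -0.24 with all 4 arrays and -0.07 without replicate 4. Rec8 had 1275.3, 799.0, 1635.8 and 1016.5 in XX Ctnnb1KO against 2401.9, 2864.5, 2804.3 and 2782.1 in XX control, so that no array reached the control range, a state seen in 6.77% of all genes with XX Ctnnb1KO lower. It fell by 1.23 ± 0.16 on the log2 scale (limma adjusted p = 1.02e-06). Without replicate 4, whose Xist signal went against its label, the difference was -1.18 ± 0.17 (limma adjusted p = 1.19e-05). With all 4 arrays Rec8 stood at 39.1% of the way from the XY to the XX control mean on the signal scale, against a median of 75.2% over the 23 members. Without replicate 4 Rec8 was the lowest of the 23 at 41.3%, and the median was 93.5%. Pregranulosa cell sums were 6617 to 7951 in XX Ctnnb1KO, against 11352 to 12574 in XX control, and their part in the Rec8 value was not tested.

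Rec8 was also lower in XX DKO, against the same 4 XX control arrays, so this result is not independent of that in XX Ctnnb1KO. Its signals were 1198.3, 1118.8, 1291.2 and 1123.3, the difference from XX control was -1.19 ± 0.16 (limma adjusted p = 1.87e-06) and the arrays did not overlap with the control (6.9% of all genes with XX DKO lower). 2 members were called in this comparison (5.61% of all genes lower, 12.9% either way; 5 at an unadjusted p under 0.05, beside 25.9% over all genes): Rec8 and Mei1, at -1.34 ± 0.42 (limma adjusted p = 0.0325) with signals of 63.9, 217.7, 84.2 and 91.5 in XX DKO against 247.1, 147.5, 594.5 and 297.1 in XX control, so that the groups overlap. Among the 22 members with an XY control array above the median, 1 was called lower. The call of Mei1 was lost without XX Ctr replicate 3 or 4 and without XX DKO replicates 1, 3 or 4 (-1.32 to -0.998 over these). Without XX DKO replicate 2, the array highest in 22 of the 23 members, 6 were called, with Rec8 at -1.16 ± 0.17, Mei1 at -1.66 ± 0.44, Meioc at -1.10 ± 0.31, Sycp3 at -1.11 ± 0.36, Prdm9 at -1.57 ± 0.52 and Ythdc2 at -0.51 ± 0.12. The share of all genes called without that array is not given, so the count of 6 describes the members only. The median over members with all 4 arrays was -0.36, against 0.01 over all genes.

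The other entry and axis genes of these XX gonads overlapped with XX control. Stra8 had 2927.6, 4838.6, 4741.2 and 2503.2 in XX Ctnnb1KO and 2680.9, 5026.0, 3278.5 and 1996.9 in XX DKO. Meioc had 1240.5, 2608.9, 2297.3 and 810.4 in XX Ctnnb1KO and 1221.7, 2391.7, 1336.5 and 855.7 in XX DKO. In both groups replicate 2 was within the XX control range of Meioc and replicate 4 was the lowest. Smc1b had 3436.2, 6350.4, 5020.1 and 2739.2 in XX Ctnnb1KO and 3014.6, 6103.4, 4241.4 and 2723.8 in XX DKO, and Hormad1 had 963.0 to 1803.7 and 847.1 to 1741.2. In XX DKO, Dmc1 had 387.2 to 1206.1 and Prdm9 164.2 to 1105.9, with lower ends under the XX control range and above the XY control range. In XX Ctnnb1KO the lowest values of Stra8, Meioc, Smc1b, Hormad1, Dmc1 and Prdm9 were all on replicate 4. On its other 3 arrays Dmc1 had 644.3 to 1513.3, none below the XX control range, with 400.7 on replicate 4, and Prdm9 had 223.6 to 1229.4, with 140.5 on replicate 4.

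**Figure D2:**
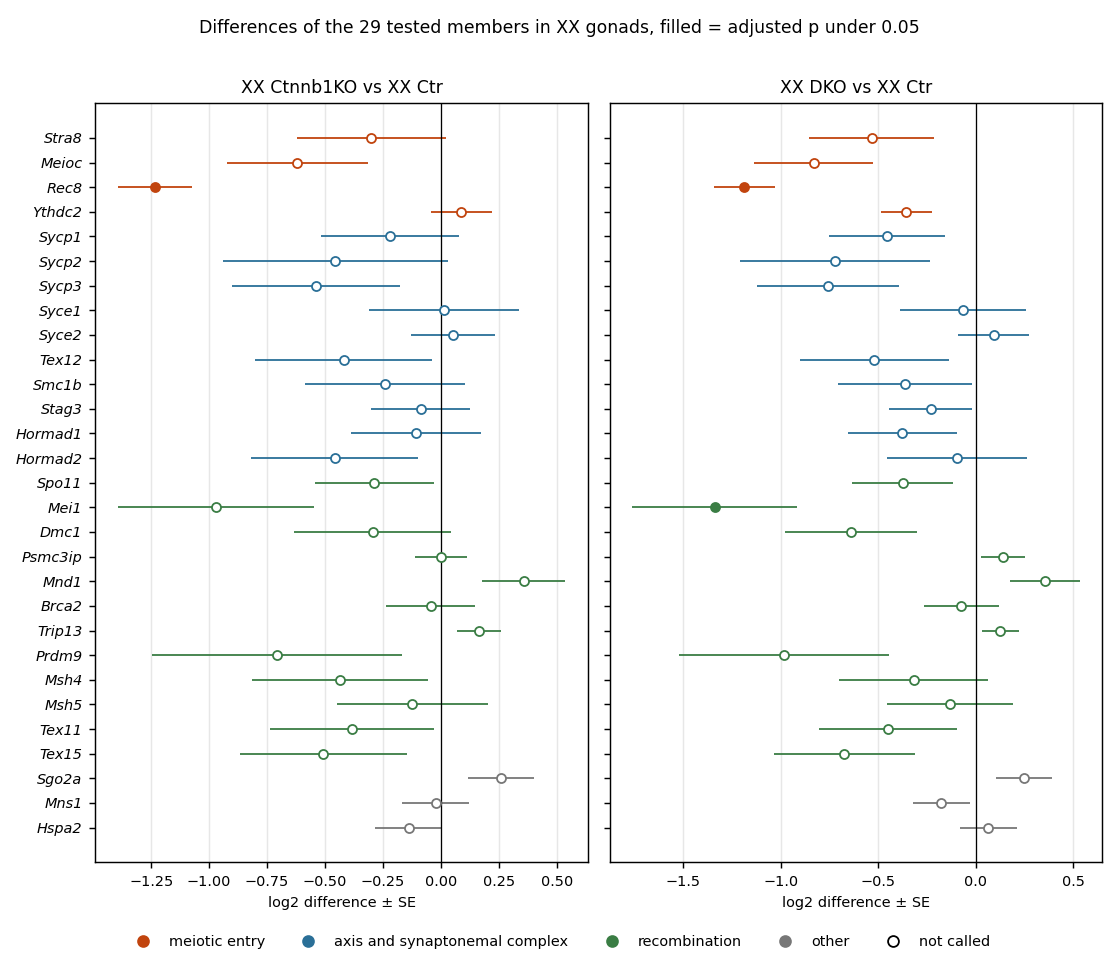
Difference of each of the 29 tested members (horizontal axis, log2 of signal + 16, bars are the standard error of the fit) of XX Ctnnb1KO and XX DKO from XX Ctr; filled points were called and colour gives the role. Rec8 lies at -1.23 and -1.19 with narrow bars, and Mei1 at -1.34 with a wide one.

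Loss of Sox9 alone from XX gonads called 0 members (0% of all genes called; limma, 0 members at an unadjusted p under 0.05 against 4.56% of all genes). Rec8 had 1958.2, 2331.5, 2570.2 and 2670.7 in XX Sox9KO, against 2401.9 to 2864.5 in XX control. Replicates 1 and 2 thus lay below the control range. Germ cell markers were lower by a median of 0.43 on the log2 scale in this group, 13 of 14 below 0 and 5 at an unadjusted p under 0.05 (limma, 0 called), with sums of 13590 to 26286. On the germ cell marker scale all 29 members lay above XX control, by 0.36 to 0.93, with 0 called (limma, lowest adjusted p = 0.0828); the median of all genes lay 0.66 above on that scale. In XY gonads loss of Ctnnb1 alone likewise called 0 members (0.0679% of all genes called), with 2 at an unadjusted p under 0.05 (4.02% over all genes): Stra8 at -0.70 ± 0.32, with 95.3, 121.5, 192.3 and 136.3, and Ythdc2 at 0.31 ± 0.13, with 417.8 to 520.8, above the XY control range (1.94% of all genes with XY Ctnnb1KO higher on every array). Neither passed the adjustment (limma adjusted p = 1), and Stra8 overlapped with the XY control.

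Gonads of XY fetuses without both genes lay between the controls. XY DKO was higher than XY control for 11 of 29 members and lower for 0 (9.62% of all genes higher, 17.2% either way), with a median of 0.63 against 0.04 over all genes. The 4 entry genes and 7 of 10 axis genes were called. 0 of 12 recombination genes were called (limma; 3 at an unadjusted p under 0.05, beside 29.8% of all genes) and 0 of 3 others (0 at an unadjusted p under 0.05). Of the 11, Meioc and Hormad2 were below the median on every XY control array, which leaves 9 over the other 22 members. The arrays of 10 of the 11 did not overlap with XY control, against 14.5% of all genes with XY DKO higher; Syce2 overlapped.

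Stra8 gave 1729.1, 2612.8 and 530.1 on XY DKO replicates 2, 3 and 4, all above the XY control range of 165.0 to 284.2 and below the XX control range of 3127.8 to 6182.5. The difference from XY control was 2.49 ± 0.35 (limma adjusted p = 2.88e-06). That error rests on a spread shared by all groups (pooled log2 standard deviation 0.51), while the XY DKO arrays alone had 1.18. Meioc gave 532.4, 816.4 and 296.3 (2.51 ± 0.33) and Rec8 724.5, 948.5 and 517.2 (1.76 ± 0.17, limma adjusted p = 3.9e-09). Both also lay between the controls on all 3 arrays. Ythdc2 gave 604.3, 625.3 and 560.5 (0.69 ± 0.14), again between the control ranges of 316.0 to 395.3 and 770.0 to 1067.4.

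Of the axis genes, Smc1b gave 2608.5, 3736.1 and 992.8 (1.83 ± 0.37), Hormad1 687.9, 964.9 and 429.7 (1.37 ± 0.30) and Hormad2 131.2, 149.1 and 104.4 (1.68 ± 0.39). Syce1 (1.45 ± 0.35), Sycp1 (1.20 ± 0.32), Stag3 (1.06 ± 0.23) and Syce2 (0.61 ± 0.20, limma adjusted p = 0.0295) were called as well. Tex12, at 1.03 ± 0.41 (limma adjusted p = 0.0851), and Sycp3, at 1283.5, 1820.4 and 999.0 against 650.8 to 1032.9 in XY control, were not. Among recombination genes Spo11 (0.63 ± 0.28), Brca2 (0.54 ± 0.21) and Tex11 (0.87 ± 0.38) came nearest, while Dmc1 had 293.2, 376.7 and 168.8 against 184.6 to 276.5 in XY control and Prdm9 150.9, 140.5 and 61.5 against 44.5 to 96.5. Without replicate 4, 15 members were called. These were the 11 and Brca2 (0.77 ± 0.22), Spo11 (0.98 ± 0.29), Tex11 (1.27 ± 0.41) and Tex12 (1.38 ± 0.45). The share of all genes called without that array is not given, so the rise cannot be set apart from one over all genes.

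**Figure D3:**
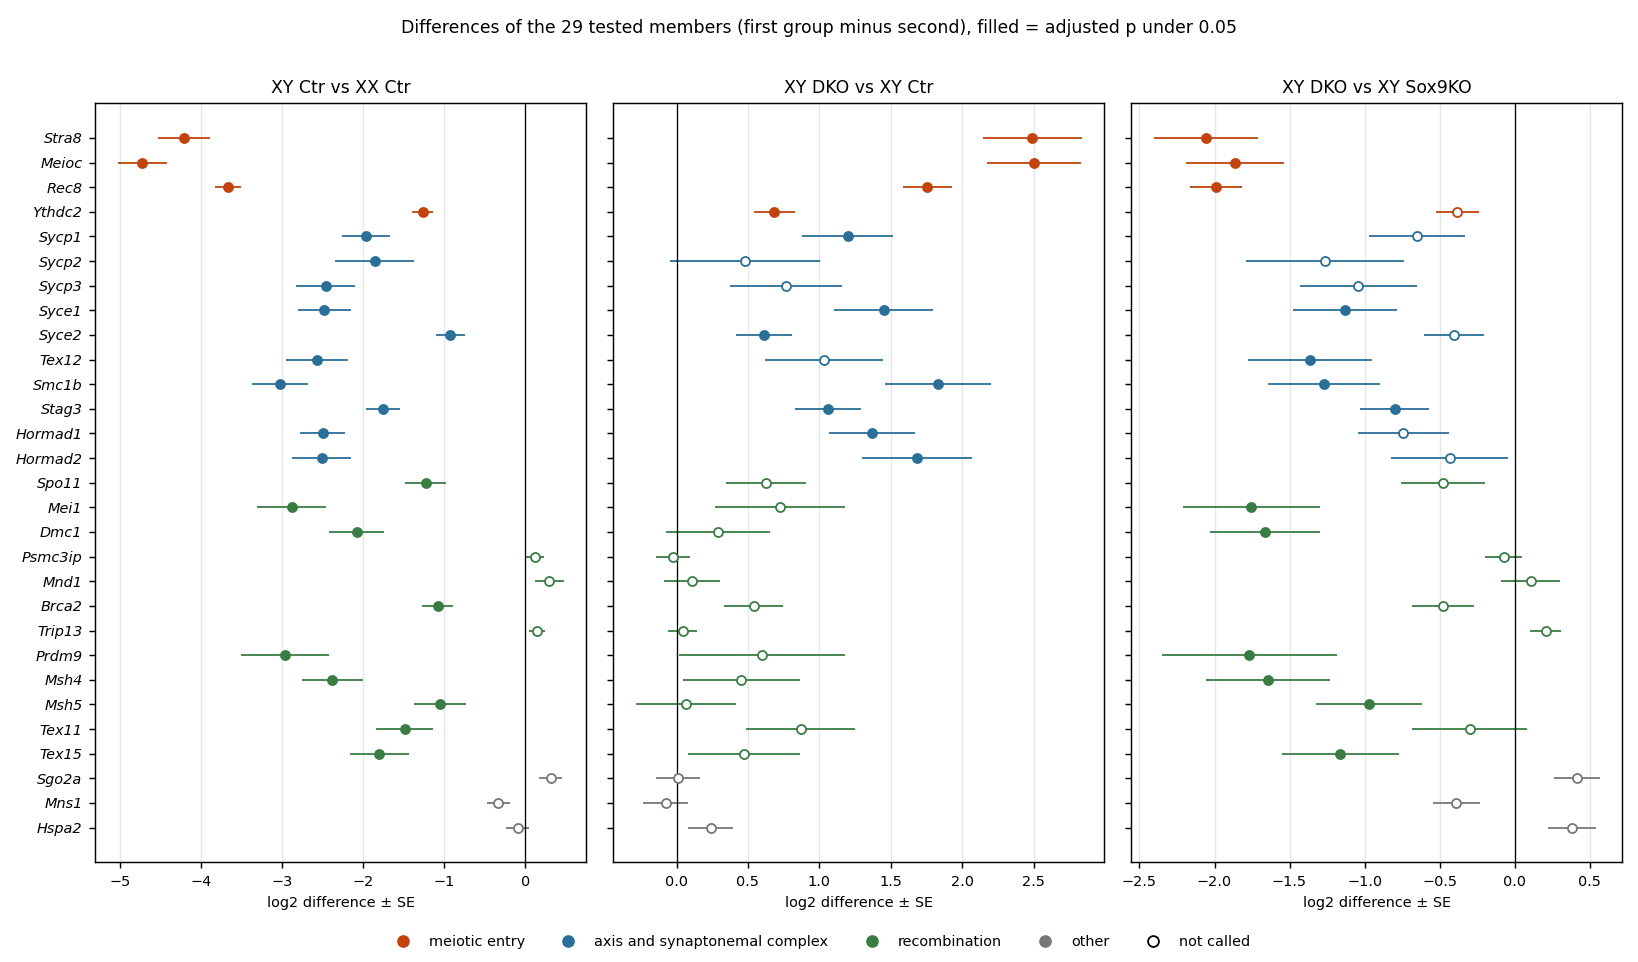
Difference of each of the 29 tested members (horizontal axis, log2 of signal + 16, bars are the standard error of the fit) for XY Ctr against XX Ctr, XY DKO against XY Ctr and XY DKO against XY Sox9KO; filled points were called and colour gives the role. The called counts are 23, 11 and 13, and no recombination gene is filled in the comparison of XY DKO with XY Ctr.

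The 3 XY DKO arrays differed among themselves. With 0% at the XY control mean and 100% at the XX control mean on the log2 scale, the 23 members had medians of 54.5% on replicate 2, 75.2% on replicate 3 and 14.7% on replicate 4. Replicate 3 was the highest of the 3 in 21 members, and replicate 4 the lowest in 22. Replicate 4 lay below every array of XX DKO and of XY Sox9KO in all 23, and against XY control it was above the range in 11, within it in 10 and below it in 2. On replicate 2 the counts against XY control were 20 above and 3 within, and on replicate 3 they were 22 above and 1 within.

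By role, positions on replicate 4 were as follows. The 4 entry genes lay at 28.0% to 47.3% and above the XY control range, the 9 axis genes of the 23 at -29.1% to 57.1% with 6 above, and the 10 recombination genes at -16.2% to 38.6% with 1 above, 7 within and 2 below. The recombination gene above the range, also the highest at 38.6%, was Mei4, which was not tested and had a signal of 24.7. Mei1 was next at 11.9%, within the range. On replicate 3 the medians were 63.3% for entry, 76.6% for axis and 53.9% for recombination genes, and on replicate 2 they were 55.0%, 64.8% and 32.9%. Sycp2 had 407.3 on replicate 4, within the XY control range of 379.1 to 791.0, and Hormad2, the highest there at 57.1%, had 104.4 against 14.4 to 58.8. For 7 members all 3 arrays lay between the ranges of the 2 controls. The mean position of the group was 50% at the median, from 6.08% for Msh5 to 66.9% for Hormad2. On the signal scale, which has no added number, the median was 32.0%, from 4.1% for Msh5 to 50.2% for Tex11, and Hormad2 lay at 45.2%.

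**Figure D4:**
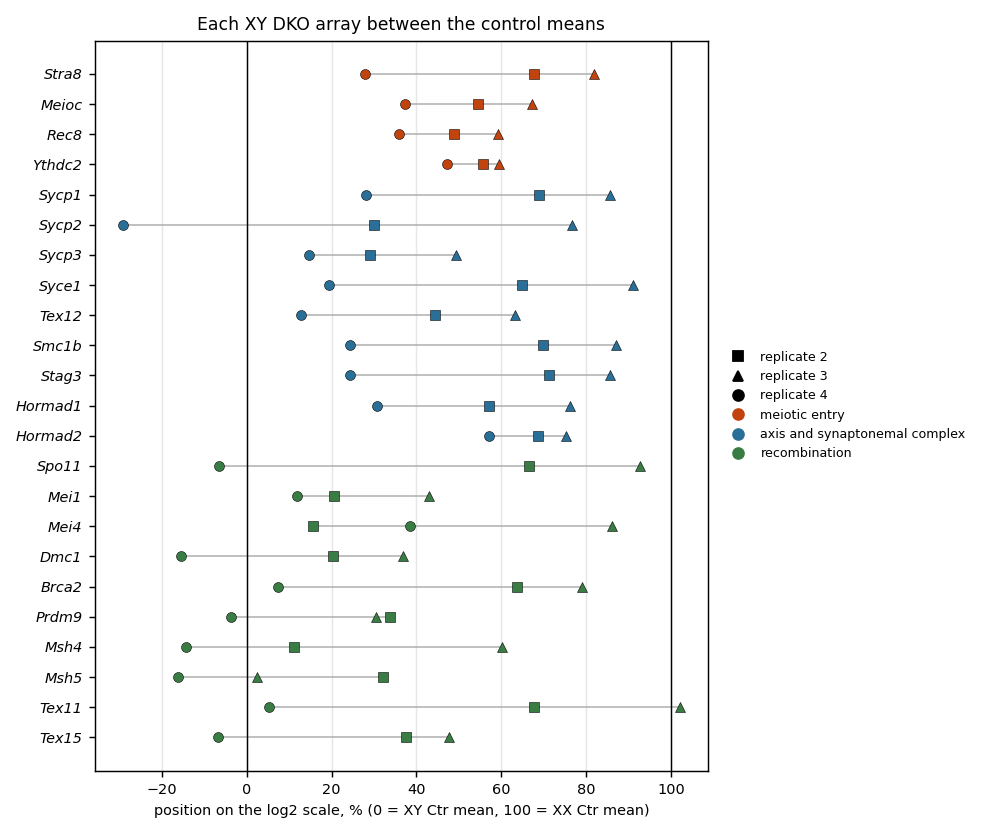
Position of the 23 members (vertical list) on the 3 XY DKO arrays, in percent between the XY Ctr mean (0) and the XX Ctr mean (100) of log2(signal + 16); squares are replicate 2, triangles replicate 3 and circles replicate 4. Replicate 3 lies furthest right in 21 members and replicate 4 furthest left in 22.

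The summed germ cell marker signal moved with this order. It was 26588 on XY DKO replicate 2, 32329 on replicate 3 and 14082 on replicate 4, against 19052 to 24408 in XY control, 20042 to 24654 in XY Sox9KO and 15398 to 27069 in XX control. The summed signal of the 30 measured members was 31866, 39987 and 19573 on the same arrays. In these whole gonads fewer germ cells and less RNA per cell cannot be told apart. Replicate 4 also had the lowest sum of the group for 6 male germ cell genes, 2495 against 4054 and 4408. Sertoli cell sums on the 3 arrays were 7998, 8569 and 8735, against 27250 to 31134 in XY control, and pregranulosa cell sums were 5577 to 6724, against 1588 to 1770 in XY control and 11352 to 12574 in XX control. Fetal Leydig cell sums were 12099 to 15674, against 32849 to 37935 in XY control, and macrophage and leukocyte sums 5449 to 7567, against 2697 to 3492. The part of these cells in the members' values was not tested. On the germ cell marker scale 4 members were called in XY DKO against XY control, beside 2.61% of all genes called either way on that scale. They were Stra8 (2.21 ± 0.34), Meioc (2.22 ± 0.38), Rec8 (1.47 ± 0.33) and Smc1b (1.54 ± 0.35). Of the 14 germ cell markers themselves, 3 were higher and 4 lower in XY than in XX control; Rhox6 and Rhox9, X-linked homeobox genes, were among the lower.

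**Figure D5:**
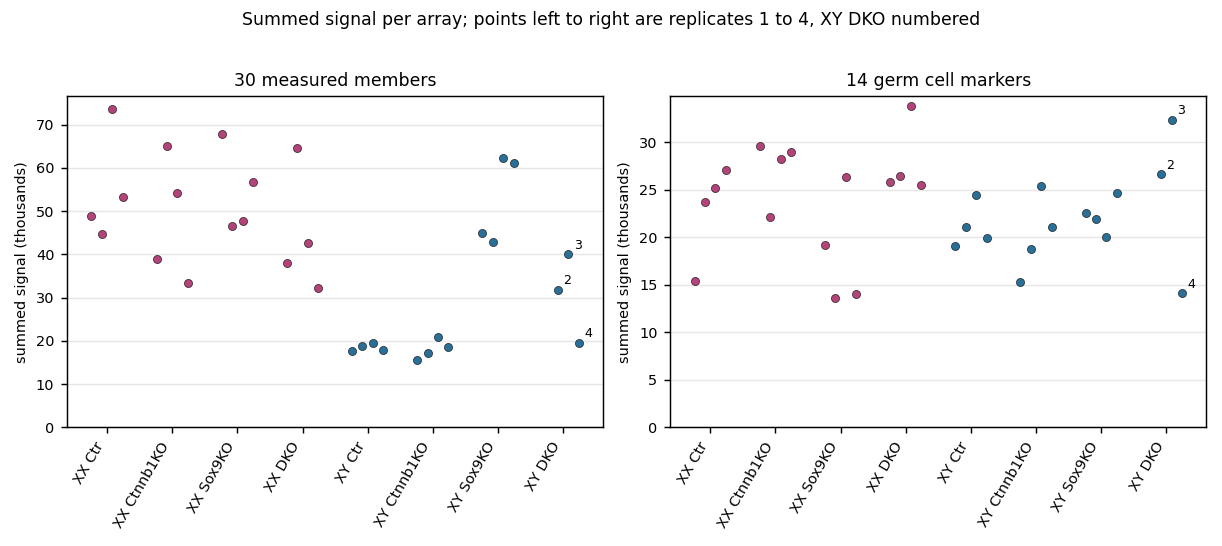
Summed signal (axis in units of 1000) of the 30 measured members and of 14 germ cell markers on every array of the 8 groups; the XY DKO points carry their replicate number. XY DKO replicate 4 is at 19573 for the members and 14082 for the markers.

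Compared with XY Sox9KO, 13 members were lower in XY DKO and 0 higher (10.8% of all genes lower, 21.8% either way), and all 29 had a median of -0.80 against -0.02 over all genes. Over the 22 members with an XY control array above the median, 8 were called lower. Rec8 fell furthest relative to its error, by 1.99 ± 0.17 on the log2 scale (limma adjusted p = 3.01e-10), from 2647.9 to 3086.2 in XY Sox9KO to 517.2 to 948.5. Stra8 fell by 2.06 ± 0.35 (limma adjusted p = 4.27e-05) and Meioc by 1.86 ± 0.33 (limma adjusted p = 8.05e-05), with no overlap in any of the 3 (13.6% of all genes with XY DKO lower on every array). Ythdc2 was -0.38 ± 0.14 (limma adjusted p = 0.0525). Among axis genes, Tex12 (-1.37 ± 0.41), Smc1b (-1.27 ± 0.37), Syce1 (-1.13 ± 0.35) and Stag3 (-0.80 ± 0.23) fell, while the other 6 did not pass. Of the 12 recombination genes 6 fell, with Prdm9 at -1.77 ± 0.58, Mei1 at -1.75 ± 0.46, Dmc1 at -1.66 ± 0.37, Msh4 at -1.64 ± 0.41, Tex15 at -1.16 ± 0.39 and Msh5 at -0.97 ± 0.35. Prdm9, Mei1, Msh4 and Msh5 passed the filter only through groups in which they were higher, so their falls are given as a description. The call of Msh5 was lost under 13 alternative settings, and those of Tex15 and Syce1 under 5 each.

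The count depended on 2 arrays. Without XY DKO replicate 4, 5 members were lower (Rec8 -1.77 ± 0.18, Meioc -1.49 ± 0.35, Stra8 -1.40 ± 0.30, Mei1 -1.56 ± 0.52 and Dmc1 -1.36 ± 0.40) and 2 higher, Hspa2 (0.50 ± 0.17) and Trip13 (0.33 ± 0.11). Without XY Sox9KO replicate 4 the count was 7. The shares of all genes called without either array are not given. Relative to germ cell markers 9 members were lower, beside 3.06% of all genes called either way: Stra8, Meioc, Rec8, Tex12, Smc1b, Mei1, Dmc1, Prdm9 and Msh4.

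Against the ovarian control, 16 members were lower in XY DKO (11.7% of all genes lower, 26.2% either way). All 4 entry genes were among them, with Rec8 at -1.91 ± 0.17, Meioc at -2.22 ± 0.33, Stra8 at -1.72 ± 0.35 and Ythdc2 at -0.58 ± 0.14, as were 6 axis genes (Sycp3, Syce1, Tex12, Smc1b, Stag3 and Hormad1) and 6 recombination genes (Mei1, Dmc1, Prdm9, Msh4, Msh5 and Tex15). The count over the 22 members with an XY control array above the median was 11. The comparisons of XY DKO share its 3 arrays, so their values stand side by side and are not independent. Without XY DKO replicate 4, 9 were lower and 3 higher, Mnd1 (0.68 ± 0.20), Psmc3ip (0.31 ± 0.11) and Trip13 (0.31 ± 0.11). For this count too the share of all genes is not given.

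Against XX DKO, 4 members were lower in XY DKO (1.77% of all genes lower, 5.22% either way): Stra8 (-1.18 ± 0.35, limma adjusted p = 0.0413), Meioc (-1.39 ± 0.33), Rec8 (-0.72 ± 0.17) and Msh4 (-1.61 ± 0.41). Among the 22 members with an XY control array above the median, 2 were called lower. Stra8 was 1996.9 to 5026.0 in XX DKO, which overlaps with 530.1 to 2612.8 in XY DKO. Without XY DKO replicate 4 none of the 29 was called, and the count was 1 without XX DKO replicate 2 and 2 without XX DKO replicate 3. Shares of all genes called are not given for these settings.

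The effect of Ctnnb1 loss without Sox9 was compared between the sexes in 4 groups that share no arrays, as the change from XY Sox9KO to XY DKO less the change from XX Sox9KO to XX DKO. Of 29 members 1 was called, Rec8, at -0.998 ± 0.233 (limma adjusted p = 0.0267; 0.943% of all genes called; unadjusted p under 0.05 for 6 members, beside 15% over all genes). Its signal mean went from 2382.6 to 1182.9 in XX and from 2871.0 to 730.1 in XY gonads. The call was lost without XX Sox9KO replicate 1 (-0.91), XX DKO replicate 3 (-0.96), XY Sox9KO replicate 4 (-0.97), XY DKO replicate 2 (-1.01) or XY DKO replicate 4 (-0.78). Relative to germ cell markers the difference was -0.46 ± 0.44 (limma adjusted p = 0.567). On that scale the median of all genes lay at 0.51, against -0.03 without it. Of 14 germ cell markers, 13 lay below 0 in this comparison and 2 were called lower. Their part in the Rec8 value was not tested.

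Within a group, single arrays carried high or low values for nearly the whole set. XX Ctr replicate 3 was the highest of its group in 22 of the 23 members, XX Ctnnb1KO replicate 2 in 21, XX Sox9KO replicate 1 in 19 and XX DKO replicate 2 in 22. XX Ctnnb1KO replicate 4 was the lowest in 21 and XX DKO replicate 4 in 19. In XY Ctnnb1KO replicate 1 was the lowest in 18 and replicate 3 the highest in 16, and in XY Sox9KO replicate 2 was the lowest and replicate 3 the highest in 13 each. In XY control no array was the highest in more than 9. The germ cell marker sum did not follow this order in every group: it was 25201 on XX Ctr replicate 3 within 15398 to 27069, and 22113 on XX Ctnnb1KO replicate 2, the lowest of that group. The spread differed by gene. Prdm9, with the highest pooled standard deviation (0.86 on the log2 scale), varied by 8.75 times between the arrays of XX Ctnnb1KO (5.5 times without replicate 4) and by 6.74 times in XX DKO, whereas Rec8 had 0.24 and Ythdc2 0.19.

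Further genes of meiosis outside the set were called lower in XY control than in XX control, and regulators of meiotic entry were called in both directions. Of 39 further meiosis genes listed, 21 had a probe set and 19 were tested; 13 were lower in XY than in XX control and 0 higher (19.8% of all genes lower), with Terb1 (-4.12 ± 0.59) and Majin (-3.83 ± 0.49), which tether telomeres to the nuclear envelope, Ccnb1ip1 (-1.83 ± 0.27), a crossover regulator, and the break protein Rec114 (-1.54 ± 0.24). In XY Sox9KO against XY control 14 were higher (22.7% of all genes higher), led by Majin (3.49 ± 0.49), Syce3 (2.98 ± 0.50), Terb1 (3.44 ± 0.59) and Terb2 (1.75 ± 0.32). In XY DKO against XY control 1 was called, Tdrd9, a piRNA pathway gene, and it was lower (-1.41 ± 0.35; 7.61% of all genes lower), while 15 of the 19 lay above 0 and the median was 0.48. In XX Ctnnb1KO, XX Sox9KO and XX DKO against XX control 0 were called (limma; 1, 0 and 5 at an unadjusted p under 0.05, against 20.5%, 4.56% and 25.9% of all genes). Against XX control 11 were lower in XY DKO (11.7% of all genes lower), with 4930447C04Rik (-1.54 ± 0.29), Majin (-2.51 ± 0.53), Ccnb1ip1 (-1.28 ± 0.29) and Taf7l (-2.07 ± 0.50). Against XY Sox9KO 8 were lower in XY DKO (10.8% of all genes lower), with Majin (-2.16 ± 0.53), Syce3 (-2.05 ± 0.54), Terb2 (-1.27 ± 0.35) and 4930447C04Rik (-1.03 ± 0.29).

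Of 28 listed regulators of meiotic entry, 26 were tested, and 10 were higher and 9 lower in XY than in XX control (37.8% of all genes called either way). Cyp26b1, which degrades retinoic acid, had a mean signal of 999.8 ± 179.0 in XY control (SD, n = 4), 728.7 ± 92.7 in XY Ctnnb1KO (SD, n = 4) and 292.5 ± 55.0 in XY DKO (SD, n = 3); in the other 5 groups the means were 80.0 to 119.7. Msx1, a BMP-responsive factor of meiotic germ cells, had means of 1118.3 in XX control, 352.2 in XX Ctnnb1KO, 361.9 in XX DKO, 1174.4 in XY Sox9KO, 140.3 in XY DKO and 43.4 in XY control. XY DKO thus held an intermediate Cyp26b1 signal and a low Msx1 signal, both called against XY Sox9KO (1.61 for Cyp26b1 and -2.93 for Msx1). In XX Ctnnb1KO against XX control 4 regulators were higher and 6 lower (10.1% of all genes called either way): Lefty2 (4.53 ± 0.16) and Lefty1 (3.57 ± 0.32), Nodal pathway genes of male germ cells, rose, and Wnt4 (-1.20 ± 0.11) and Msx1 (-1.63 ± 0.16) fell. In XY Ctnnb1KO against XY control 1 regulator was called (0.0679% of all genes), Aldh1a3, a retinoic acid synthesising enzyme, at -1.68 ± 0.17. In the comparison of Ctnnb1 loss between the sexes Cyp26b1 (1.26 ± 0.30) and Aldh1a1 (0.60 ± 0.11) were higher and Msx1 (-1.40 ± 0.24) lower, beside 0.943% of all genes called. The male germ cell sum was 2333 to 3391 in XX Ctnnb1KO and 2681 to 3418 in XX DKO, against 383 to 539 in XX control. In both knockout groups members other than Rec8 and Mei1 were not called lower. Not every gene of the male list rose. Of 5 tested, 3 were called higher in each group, beside 10.1% and 12.9% of all genes called either way. Their lowest differences were 0.075 in XX Ctnnb1KO and -0.052 in XX DKO. The part of these genes in the members' values was not tested.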

How the data were processed

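The deposited values were the authors' linear signal intensity per probe set of the Affymetrix Mouse Genome 430 2.0 array, with MAS5 named in the submitters' processing notes. Array medians ranged from 120.6 to 168.8. The number of arrays limits the precision. Of 45101 probe sets, 34945 had 1 gene symbol. Signals were taken as log2(signal + 16), 1 probe set per gene. Genes above their own array's median on at least 3 arrays were tested. Group means were fitted over all 31 arrays with limma 3.58.1 in R 4.3.3 (lmFit, eBayes with trend, 23 residual degrees of freedom), and p-values were adjusted by Benjamini-Hochberg over all genes tested and called under 0.05. The scripts were tested on simulated data. Each array is 1 fetus. The spread between fetuses was estimated per gene over all 8 groups together, so p-values do not measure the spread within a single group. In XY DKO the log2 standard deviation of Stra8 was 1.18, against 0.18 in XY Sox9KO and 0.51 pooled over the groups. For such genes the standard errors of XY DKO may be too small. Ythdc2 went the other way, with 0.08 in XY DKO against 0.19 pooled. All 30 members with a probe set were named, and of the other lists up to 4 called genes per comparison by adjusted p; Cyp26b1 and Msx1 levels, Rhox6 and Rhox9 were named after their values were seen. The members and lists were chosen with earlier results of these data known. On average over all genes, arrays of the same replicate number were no more alike than others (closing section). Alternatives were quantile normalization, the pseudocount, the filter, the mean of all probe sets, only the compared arrays, array weights, a replicate block, each array left out and, chosen after the data were seen, scaling to germ cell markers.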

Additional observations from a re-analysis of the deposited data

Results flagged for a closer look

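In 210 sets of signals of 1 member in 1 group of 4, 10 had an array far from the other 3 by Dixon's criterion, and chance gives about 1 in 20. 4 of them were on XX DKO replicate 2: Sycp2 at 3650.3 (others 690.9 to 1180.5), Prdm9 at 1105.9 (164.2 to 280.9), Tex11 at 355.2 (144.3 to 154.4) and Hspa2 at 1692.4 (1311.9 to 1361.6). XX Ctr replicate 3 had Sycp1 at 3070.4 (1803.4 to 2010.4) and XX Ctr replicate 1 had Sgo2a at 1209.4 (768.2 to 843.2). XX Sox9KO replicate 3 had Mnd1 at 735.2 (447.9 to 487.1). In XY Ctnnb1KO, Smc1b was low on replicate 1 at 283.8 (579.4 to 640.0), and replicate 3 was high for Mei4 at 25.8 (9.6 to 12.2) and Mnd1 at 753.3 (622.5 to 639.2).

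Rec8 differed between the sexes in its change with loss of Ctnnb1 in gonads without Sox9, by -0.998 ± 0.233 (SE; limma adjusted p = 0.0267), a larger fall in XY than in XX gonads. The groups hold 4 arrays each but for 3 in XY DKO. The call was lost without XX Sox9KO replicate 1, XX DKO replicate 3, XY Sox9KO replicate 4, XY DKO replicate 2 or XY DKO replicate 4 (-1.01 to -0.78). Relative to germ cell markers the difference was -0.46 ± 0.44 (limma adjusted p = 0.567), on a scale where the median of all genes lay at 0.51.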

How the results depend on the processing

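Of 95 calls of single members, 53 held under every alternative run, and over 1673 values under other settings 1544 were called the same way, 129 were not called and 0 reversed. Counts of members called, with all arrays first, moved by over 1.5 times as follows. XX DKO against XX Ctr (2) gave 1 after quantile normalization, 1 with only the compared arrays, 4 with array weights, 1 relative to germ cell markers and 1 to 6 with an array left out. XY DKO against XY Sox9KO (13) gave 7 to 17 with an array left out. XY DKO against XX DKO (4) gave 0 with only the compared arrays, 0 relative to germ cell markers and 0 to 5 with an array left out. Relative to germ cell markers XY DKO against XY Ctr (11) gave 4 and against XX Ctr (16) gave 9. On that scale 2.61% and 4.19% of all genes were called either way in these comparisons. With an array left out the same comparisons gave 8 to 15 and 12 to 19. Other shares of all genes called under these settings, an array left out included, are not given, so the remaining counts describe the members only. The difference between the sexes (1) gave 0 relative to germ cell markers and 0 to 2 with an array left out. The cause was not tested. The germ cell scale put the median of all genes at 0.53 for XY Ctr against XX Ctr. In that comparison 17 members were then called lower and 2 higher, Mnd1 (0.84 ± 0.29) and Sgo2a (0.86 ± 0.31), beside 22.6% of all genes called either way. In the other comparisons the counts stayed within 1.5 times, 22 to 24 with an array left out for both XY Ctr against XX Ctr and XY Sox9KO against XY Ctr.

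Over all genes, arrays of the same number were on average no more alike than others. For 105 same-numbered pairs of different groups the mean correlation of deviations was -0.008, with 25 over 0.1, against 0.003 for other numbers. Best correlation with an array of the same number was seen for 7 arrays. A mean cannot show whether some groups share an order. Among the 23 members replicate 2 was highest in 21 in XX Ctnnb1KO and 22 in XX DKO. In XX Sox9KO it was replicate 1, in 19. With the replicate number as a block, the counts were 23 for XY Ctr against XX Ctr, 1 for XX Ctnnb1KO, 0 for XX Sox9KO and 2 for XX DKO against XX Ctr, 0 for XY Ctnnb1KO, 24 for XY Sox9KO and 11 for XY DKO against XY Ctr, 0 and 18 for XY Sox9KO and XY DKO against XX Ctr, 14 for the pair XY DKO and XY Sox9KO, 4 for XY DKO against XX DKO and 1 for the difference between the sexes. Shares of all genes called with the replicate block are not given, so these counts describe the members only. Members with signals near the added 16, such as Mei4 and Msh4, are limited by background.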

Other observations

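A further probe set of 4 members was read beside the one described, without setting levels of different probe sets against each other. For Dmc1 it gave 782.3 ± 281.8 in XX Ctr, 144.2 ± 25.4 in XY Ctr and 722.0 ± 292.5 in XY Sox9KO (SD, n = 4 per group) and 230.3 ± 56.6 in XY DKO (SD, n = 3). For Msh5 it gave 137.3 ± 86.0 in XX Ctr, 53.9 ± 21.1 in XY Ctr and 154.7 ± 83.4 in XY Sox9KO (SD, n = 4 per group), and 67.4 ± 18.2 in XY DKO (SD, n = 3). For Psmc3ip the means were 774.7 in XX Ctr and 904.8 in XY Ctr, and for the brighter of 2 further probe sets of Trip13 885.2 and 1049.5. For Dmc1 and Msh5 the XY DKO mean lay between those of XY Ctr and XX Ctr, as with the probe set described.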
